A study of Mus musculus with 11 samples.

Results

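A set of 9 complement components and regulators was followed in neonatal mouse lung fibroblasts: C1ra, C1s1, C2, C4b, C3, Cfb, Serping1, Cd55 and Cd59a. They were taken by symbol from 32868 named genes, each had 1 entry in the deposited table, and all 9 passed the filter on low counts that left 9932 genes for testing. Cfb, the scarcest, passed it through the WT libraries, where it was higher. The 9 genes and the gene lists used here were chosen with earlier results of these data known. Their shares and medians beside those of all tested genes are therefore descriptive. The 11 libraries are bulk RNA sequencing of primary fibroblasts, labelled as sorted, in 4 groups. PAD2KO cells, which by their name lack peptidylarginine deiminase 2, gave PAD2KO 1, PAD2KO 2 and PAD2KO 3 in batch 1 and PAD2KO 6 and PAD2KO 7 in batch 2. WT cells gave WT 1, WT 3 and WT 4 in batch 1 and WT 5, WT 6 and WT 7 in batch 2. The series title speaks of basal and TNF-induced expression, but the labels name no treatment. The mouse strain, the design of the deleted allele, the sorting gate and what the batches mark are not given in the sources used here.

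Complement is a cascade of secreted proteins that tags cells and microbes for removal. In the classical pathway the paired proteases C1r and C1s, carried by C1q, cut C4 and C2, whose fragments join into an enzyme that cuts C3; factor B takes the place of C2 in the alternative pathway. C1 inhibitor, the product of Serping1, blocks C1r and C1s, Cd55 takes apart the C3-cutting enzymes on the cell surface, and Cd59a stops the membrane pore. The liver makes most circulating complement, while fibroblasts make several of these proteins locally, and inflammatory cytokines such as TNF and interferon-gamma are known to raise C3 and factor B.

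Totals of named genes were 962633 to 1421243 counts per library, and a gene without counts could still stand at 2.11 to 3.12 CPM (counts scaled to a library total of 1000000; the limit is set at 3 counts). This limit and the intervals given here cover counting error only. Padi2, the gene for the missing enzyme, had 9 counts over the 5 PAD2KO libraries and 3 over the 6 WT libraries, too few to check the genotype labels. All 8 fibroblast markers were detected in every group, at very unequal levels. Their summed level was 4348 to 4483 CPM in PAD2KO and 5016 to 5486 CPM in WT of batch 2. In batch 1 it was 10465 to 12360 CPM in PAD2KO and 11185 to 14918 CPM in WT. In WT of batch 2 the collagens Col1a1, Col1a2 and Col3a1 averaged 1169, 1018 and 1483 CPM, while Lum averaged 7.42 and Tcf21 0.98 CPM. Tcf21 had 0 counts in PAD2KO 6, WT 6 and WT 7. Of 3 hepatocyte markers, Alb and Ttr were at 0 counts throughout and Apoa1 had at most 1 count in a library. Of 7 epithelial markers, Sftpc and Scgb1a1 were at 0 counts throughout, while Krt18, a keratin, had 15 to 47 counts in every library. Separate animals or cultures are not named for the replicates, and p-values therefore reflect no more than the scatter among these libraries, which may be technical. In bulk RNA, fewer cells of a type and less RNA per cell cannot be told apart.

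Per unit of transcript length, Serping1 was the most abundant of the 9 genes in every group. Its TPM (the authors' abundance per transcript length) averaged 461.8 ± 9.89 in PAD2KO and 512 ± 46.9 in WT of batch 1 (SD, n = 3 each). In batch 2 it averaged 196 ± 81.5 in PAD2KO (n = 2) and 303 ± 44.3 in WT (n = 3). A middle rank was shared by C1s1, C3, C1ra and Cd55, whose group means ran from 11.3 to 176 TPM and whose order differed between groups. In PAD2KO of batch 2, Cd59a at 22.3 ± 2.17 TPM stood above C3 and C1ra, whose spread reached past it for C3 (20.5 ± 23.7 TPM) and not for C1ra (11.3 ± 7.47 TPM; SD, n = 2 each). In batch 1, C1s1 at 66.9 ± 14.9 and C3 at 54.4 ± 39.4 TPM in PAD2KO did not differ beyond their spread. In the other groups Cd59a ranked below these 4 genes, and C2, Cfb and C4b did so in every group; group means of Cd59a, C2, Cfb and C4b were 0 to 25.6 TPM. The 9 genes together came to 668 to 789 TPM in PAD2KO and 761 to 843 TPM in WT of batch 1, and Serping1 supplied 39.7% to 70.8% of the sum over all libraries. In batch 2 the sum was 498 TPM in PAD2KO 6 and 268 TPM in PAD2KO 7, against 631 to 676 TPM in WT, so PAD2KO 7 held the least complement transcript of the 11 libraries.

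**Figure D1:**
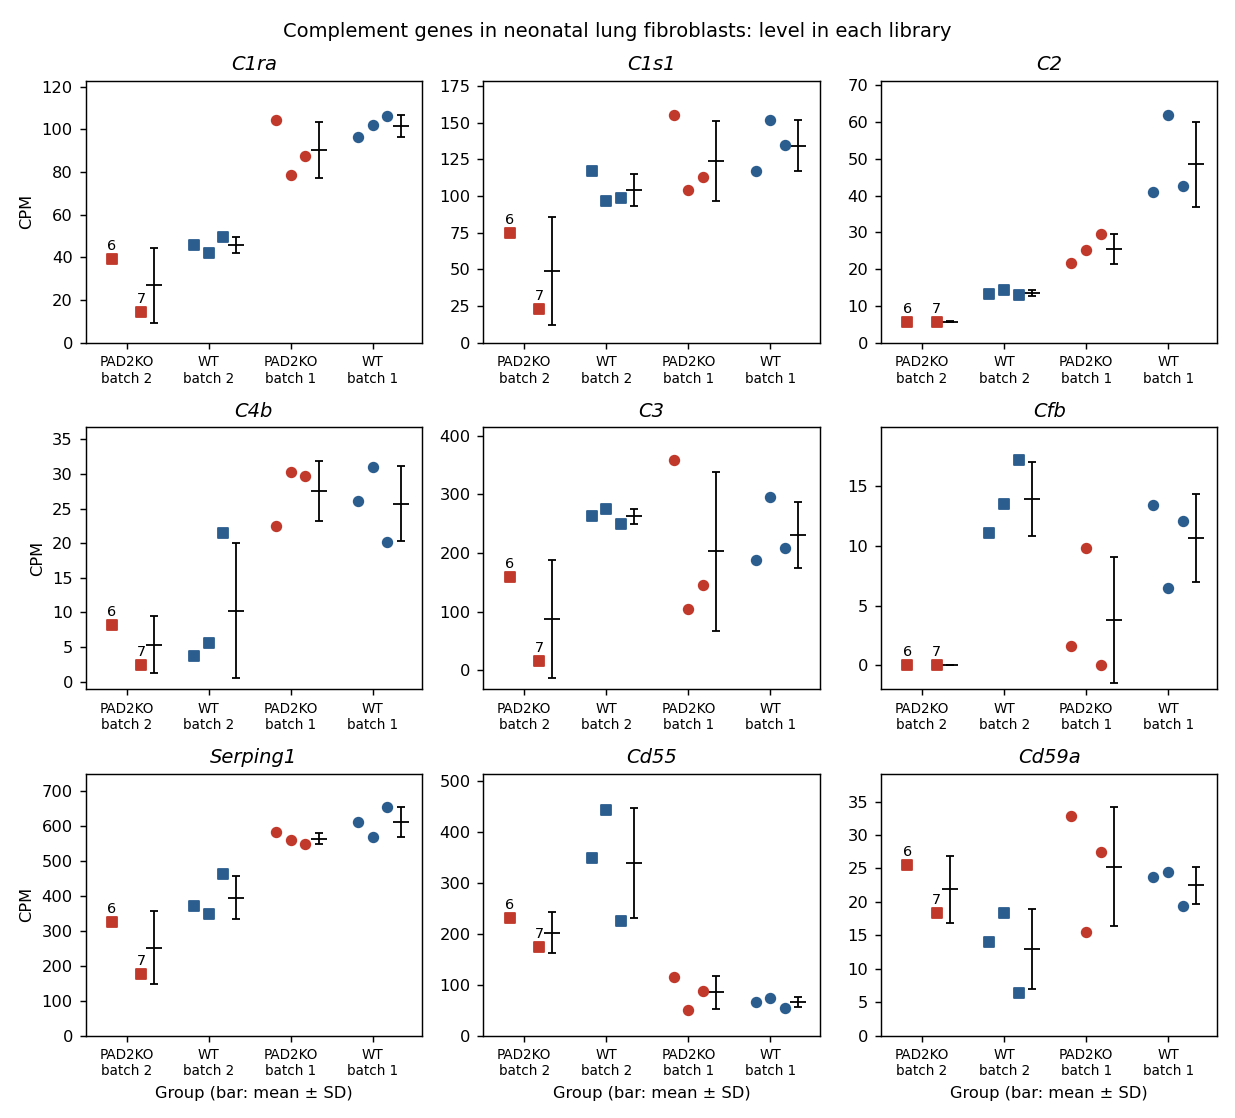
Level of each complement gene in CPM (vertical axis, linear, counts scaled to effective library size) by group, with a point per library and the group mean ± SD beside it. C2 is below WT in all PAD2KO libraries of each batch, and PAD2KO 7 is the lowest library for C1ra, C1s1, C3, C4b and Serping1.

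C4b, Cfb, C2 and C3 are on chromosome 17, C1ra and C1s1 are on chromosome 6, Serping1 and Cd59a are on chromosome 2, and Cd55 is on chromosome 1. In the RefSeq gene order of GRCm38.p6, the tested genes between C4b and C2 are Stk19, Dxo, Nelfe and Cfb. Of near-identical copies, C1rb and Cd55b had 0 counts, C1s2 had at most 1 count in a library, and C4a and Cd59b had at most 4. The estimated counts divide reads between such copies by a model, and that split is uncertain. Cfb and C2 lie close together, and reads of this pair may have been divided between them. No source used here says whether the counting used strand.

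The 250 bases before the start site are shown for 4 genes: C3, C1s1 and C1ra, which were low together in PAD2KO 7, and Cd55, which differed between batches in the opposite direction. They are RefSeq sequences in GRCm38.p6, whereas the submitters' notes name GRCm39. Each is written 5′ to 3′ along its gene's strand, in lower case, with any match to a searched motif in capitals. C3 is at chr17:57228137-57228386 (minus strand), C1s1 at chr6:124542360-124542609 (minus), C1ra at chr6:124512371-124512620 (plus) and Cd55 at chr1:130462745-130462994 (minus).
C3: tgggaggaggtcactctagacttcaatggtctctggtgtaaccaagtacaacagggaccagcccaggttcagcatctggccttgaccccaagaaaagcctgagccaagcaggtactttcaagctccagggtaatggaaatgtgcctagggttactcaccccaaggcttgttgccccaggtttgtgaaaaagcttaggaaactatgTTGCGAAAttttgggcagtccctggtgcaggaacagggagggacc
C1s1: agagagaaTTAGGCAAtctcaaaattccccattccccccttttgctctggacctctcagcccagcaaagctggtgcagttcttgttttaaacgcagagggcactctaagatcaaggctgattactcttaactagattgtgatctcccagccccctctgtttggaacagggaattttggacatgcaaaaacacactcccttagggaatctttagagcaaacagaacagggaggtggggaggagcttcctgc
C1ra: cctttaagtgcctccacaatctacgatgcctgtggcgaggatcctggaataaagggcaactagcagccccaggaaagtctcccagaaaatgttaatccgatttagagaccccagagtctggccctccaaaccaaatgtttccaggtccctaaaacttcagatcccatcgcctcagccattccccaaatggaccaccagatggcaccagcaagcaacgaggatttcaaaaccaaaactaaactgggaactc
Cd55: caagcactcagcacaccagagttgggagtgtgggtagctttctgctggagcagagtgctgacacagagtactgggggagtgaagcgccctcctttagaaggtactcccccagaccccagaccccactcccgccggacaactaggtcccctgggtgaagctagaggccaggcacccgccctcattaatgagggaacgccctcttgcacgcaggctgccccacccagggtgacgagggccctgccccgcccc

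Both strands were searched for 4 motifs of factors known to act on complement genes: C/EBP as TTNNGCAA, the STAT site GAS as TTCNNNGAA, the interferon element core as GAAANNGAA, and the NF-kB consensus. The capitals in C3 and C1s1 are C/EBP matches, at positions -45 and -242 from the start (in C3 on the opposite strand). RefSeq gives C1s1 another start, and the 250 bases before it, at chr6:124542322-124542571, do not reach that match and hold no other. Neither C1ra nor Cd55 held a match, and Cd59a held an interferon element core at -187. Of 32851 promoters of this length, 9.56% held the C/EBP letters, 7.02% the GAS letters, 7.13% the interferon element core and 7.25% the NF-kB consensus. A match describes the letters only. C2, C4b, Cfb and Serping1 were not searched here.

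PAD2KO fibroblasts held less C2 mRNA than WT fibroblasts of the same batch. C2 supplies the protease of the classical C3-cutting enzyme. It stood at 21.7, 25.3 and 29.7 CPM in the PAD2KO libraries of batch 1, against 41.0, 61.9 and 42.7 CPM in WT. In batch 2 it stood at 5.75 and 5.56 CPM in PAD2KO 6 and PAD2KO 7, against 13.3, 14.3 and 12.9 CPM in WT. All PAD2KO libraries lay below all WT libraries within each batch, and PAD2KO 6 and PAD2KO 7 held 7 counts of this gene each. Of all tested genes, 5.92% had this pattern in batch 1 and 15.7% in batch 2. The share with it in both batches is not given here. Over both batches, with batch in the model, C2 fell in PAD2KO with a log2 fold change of -0.99 (SE 0.19, adjusted p = 0.01626, edgeR's quasi-likelihood test with Benjamini-Hochberg adjustment). It was the 1 of 9 complement genes called there, where 0.191% of all tested genes were called. The unadjusted p was under 0.05 for 4 of the 9, and for 759 of all 9932 tested genes. Within batch 1 the C2 log2 fold change was -0.92 (SE 0.21, adjusted p = 0.09644) and within batch 2 it was -1.24 (SE 0.40, adjusted p = 0.09465), so neither batch alone passed the threshold of 0.05. WT 3 had the highest C2, and without it the log2 fold change over both batches was -0.85 (adjusted p = 0.1365). Offsets for the effective gene length, which for C2 was 1418 to 1509 bases in PAD2KO and 1925 to 2427 bases in WT of batch 2, gave -0.88 (adjusted p = 0.3476).

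Within batch 1, none of the 9 genes was called between PAD2KO and WT, where 0.131% of all tested genes were. An unadjusted p under 0.05 was found for 1 of the 9, C2, and for 545 of all 9932 tested genes. The median log2 fold change was -0.12 over the 9 genes and -0.0011 over all tested genes. C2 was the 1 gene of the 9 with all PAD2KO libraries below all WT libraries, a pattern that 5.92% of all tested genes had.

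In batch 2, C1ra, C1s1, C3 and Serping1 stood below WT in both PAD2KO libraries and farther below in PAD2KO 7. Of the 9 genes Cfb alone passed the test, and which genes passed changed with the processing. All PAD2KO libraries lay below all WT libraries for 6 of the 9 genes (C1ra, C1s1, C2, C3, Cfb and Serping1), a pattern that 15.7% of all tested genes had. Of the 9 genes 1 was called, where 3.11% of all tested genes were. The unadjusted p was under 0.05 for 5 of the 9, and for 1433 of all 9932 tested genes. The median log2 fold change was -0.80 over the 9 genes and -0.0068 over all tested genes. As the 9 genes were chosen with earlier results of these data known, their shares and median are no test of the set.

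**Figure D2:**
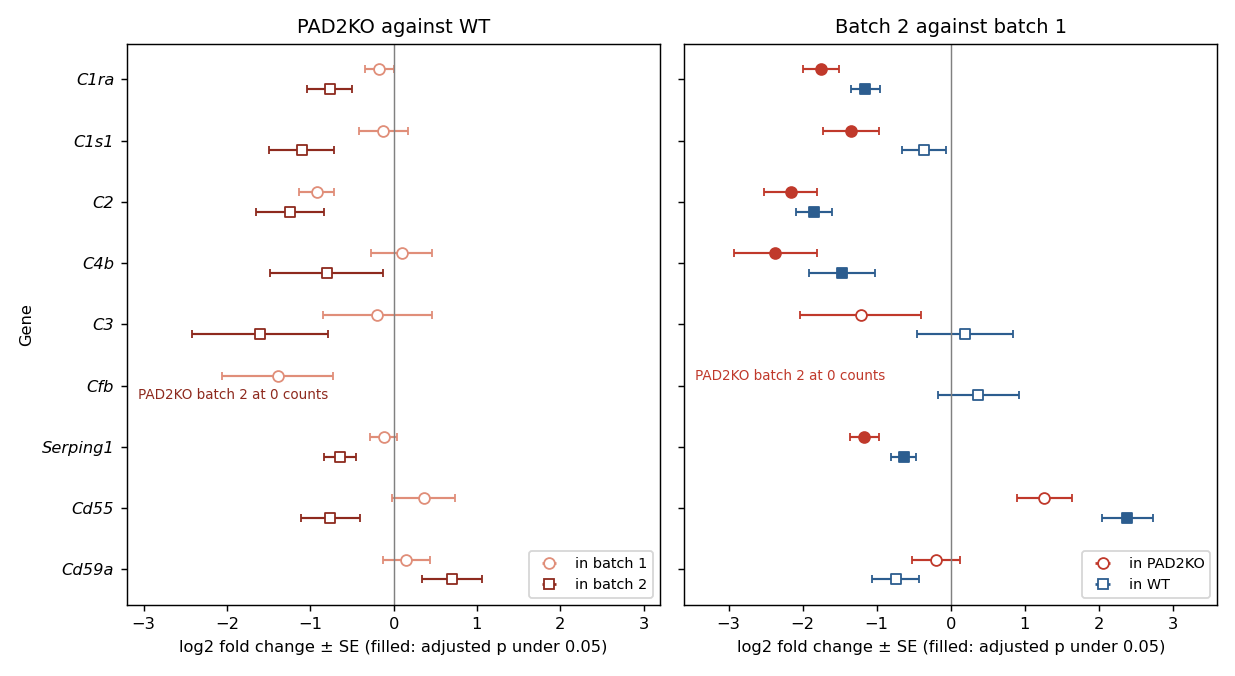
Log2 fold changes ± SE of each complement gene from edgeR's quasi-likelihood fit, for PAD2KO against WT within each batch (left panel) and batch 2 against batch 1 within each genotype (right panel). Filled symbols passed an adjusted p of 0.05; Cfb is written as text where PAD2KO batch 2 had 0 counts, and was called there against WT.

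Cfb encodes factor B, the protease component of the alternative pathway. It had 0 counts in both PAD2KO 6 and PAD2KO 7, against 15, 17 and 16 counts in WT 5, WT 6 and WT 7. The adjusted p was 0.02484 (edgeR's quasi-likelihood test). Setting 3 counts over the PAD2KO group (1.21 CPM) against 13.5 CPM over the WT group gives at least 11.2-fold lower. That limit takes the WT value as exact and leaves out its own error. In batch 1 Cfb had 2, 14 and 0 counts in PAD2KO 1, PAD2KO 2 and PAD2KO 3, against 17, 9 and 15 counts in WT 1, WT 3 and WT 4. PAD2KO 2 lay inside the WT range there, and the log2 fold change was -1.39 (SE 0.67, adjusted p = 0.9027). In all, 4 of 5 PAD2KO libraries held 0 to 2 counts, where every WT library held at least 9. With no filter on low counts, C1ra, C1s1 and Serping1 were called in batch 2 too. DESeq2 called Serping1 there and gave Cfb no adjusted p. Cfb entered the test through the WT libraries, and in batch 2 it was also called with no filter on low counts. The call there rests on few counts: without PAD2KO 6, PAD2KO 7, WT 6 or WT 7 the adjusted p was 0.0789, 0.2135, 0.06538 or 0.0747. With offsets for gene length, which for Cfb was 424 to 2492 bases across libraries, it was 0.09686. Over both batches the log2 fold change was -2.28 (SE 0.71, adjusted p = 0.4226), and it ranged from -4.62 to -1.94 with 1 library left out. The value of -4.62 was without PAD2KO 2. That library held 14 of the 16 PAD2KO counts, so leaving it out could only widen the difference.

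C3 encodes the central component, cut by both pathways. It stood at 158 CPM in PAD2KO 6 and 15.9 CPM in PAD2KO 7, against 263, 276 and 250.2 CPM in WT 5, WT 6 and WT 7. In batch 1 it stood at 358, 104.9 and 146 CPM in PAD2KO, against 189, 295 and 208 CPM in WT. The 3 WT libraries of batch 2 were close to each other, while the PAD2KO libraries of either batch were spread widely and in batch 1 ran past both ends of the WT range. The log2 fold change in batch 2 was -1.60 (SE 0.82, adjusted p = 0.4539). It was -0.73 without PAD2KO 7 and -4.04 without PAD2KO 6, and neither passed the threshold (adjusted p = 0.8616 and 0.1171). In batch 1 it was -0.20 (SE 0.65, adjusted p = 0.9951).

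C1ra and C1s1 encode the proteases that open the classical pathway. C1ra stood at 39.4 CPM in PAD2KO 6 and 14.3 CPM in PAD2KO 7, against 45.8, 42.1 and 49.4 CPM in WT of batch 2. C1s1 stood at 74.7 CPM in PAD2KO 6 and 23.0 CPM in PAD2KO 7, against 117, 96.9 and 98.8 CPM in WT. For both genes PAD2KO 6 lay below the WT range, by a small margin for C1ra, and PAD2KO 7 lay farther below it. The log2 fold changes were -0.77 for C1ra (SE 0.27, adjusted p = 0.139) and -1.10 for C1s1 (SE 0.39, adjusted p = 0.2228). Where PAD2KO 7 alone stood for PAD2KO in batch 2, assumed to vary like the other groups, they were -1.66 and -2.18. Without PAD2KO 7 they were -0.21 and -0.48. Either fit leaves 1 PAD2KO library in batch 2, with no spread of its own. In batch 1 the genotypes overlapped: C1ra stood at 104, 78.8 and 87.6 CPM in PAD2KO, against 96.3, 102 and 106 CPM in WT. C1s1 stood at 155, 104 and 113 CPM in PAD2KO, against 117, 152 and 134 CPM in WT.

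C4b encodes the mouse C4 that C1s cuts. It stood at 8.21 CPM in PAD2KO 6 and 2.38 CPM in PAD2KO 7, against 3.69, 5.56 and 21.5 CPM in WT 5, WT 6 and WT 7. PAD2KO 6 lay inside the WT range, and WT 7 stood above the other 4 libraries of its batch. The log2 fold change in batch 2 was -0.80 (SE 0.68, adjusted p = 0.6646) and turned to 0.19 without WT 7. In batch 1 C4b stood at 22.5, 30.3 and 29.7 CPM in PAD2KO, against 26.0, 30.9 and 20.1 CPM in WT, with a log2 fold change of 0.09 (SE 0.36, adjusted p = 0.9956).

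Among the regulators, Serping1 stood at 325 CPM in PAD2KO 6 and 177 CPM in PAD2KO 7, against 370, 348 and 463 CPM in WT of batch 2. Both PAD2KO libraries lay below the WT range, PAD2KO 6 by a small margin, and the log2 fold change was -0.64 (SE 0.19, adjusted p = 0.096). Where PAD2KO 7 alone stood for PAD2KO in batch 2 it was -1.15, and without PAD2KO 7 it was -0.27. In batch 1 Serping1 stood at 581, 559 and 549 CPM in PAD2KO, against 611, 566 and 654 CPM in WT. These groups overlapped, with a log2 fold change of -0.12 (SE 0.16, adjusted p = 0.9813).

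The surface regulators Cd55 and Cd59a were not called in either batch. Cd55 stood at 229.9 and 173 CPM in PAD2KO 6 and PAD2KO 7, against 348, 442 and 225 CPM in WT of batch 2, and WT 7 lay within the PAD2KO range. Its log2 fold change was -0.76 in batch 2 (SE 0.35, adjusted p = 0.3936) and 0.36 in batch 1 (SE 0.38, adjusted p = 0.9692). In batch 1 Cd55 stood at 115, 50.7 and 88.3 CPM in PAD2KO, against 66.3, 74.1 and 54.7 CPM in WT, and the groups overlapped. Cd59a stood at 25.5 and 18.3 CPM in PAD2KO 6 and PAD2KO 7, against 14.0, 18.3 and 6.44 CPM in WT of batch 2, where PAD2KO 7 and WT 6 were equal to 3 digits. Its log2 fold change was 0.70 in batch 2 (SE 0.36, adjusted p = 0.3888). In batch 1 it stood at 32.9, 15.5 and 27.5 CPM in PAD2KO, against 23.7, 24.5 and 19.3 CPM in WT.

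The difference between the genotype differences of the batches was called for none of the 9 genes, where 1.62% of all tested genes were called. An unadjusted p under 0.05 was reached by Cfb alone of the 9 (adjusted p = 0.275), and by 1150 of all 9932 tested genes. For C2 this difference was -0.32 on the log2 scale (SE 0.46), for C3 it was -1.40 (SE 1.04), for C1s1 it was -0.98 (SE 0.49) and for Cd55 it was -1.12 (SE 0.52). Without PAD2KO 6 this difference was -1.49 for C1ra, -2.05 for C1s1 and -1.03 for Serping1, with PAD2KO 7 alone standing for PAD2KO in batch 2. Over the fits with 1 library left out it reached up to -0.033, -0.36 and -0.15.

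Set against each other, PAD2KO 7 and PAD2KO 6 differed most in C3, with 20 counts in PAD2KO 7 and 193 in PAD2KO 6. The ratio was 0.100 (exact 95% interval 0.0599 to 0.159), and C3 was the sixth lowest of 9932 tested genes by this ratio. C1s1 had a ratio of 0.308 (0.196 to 0.473), C1ra 0.363 (0.199 to 0.635), C4b 0.290 (0.0513 to 1.13) and Serping1 0.545 (0.460 to 0.644). The other genes were nearer to 1, with 0.753 (0.628 to 0.903) for Cd55, 0.718 (0.400 to 1.27) for Cd59a and 0.968 (0.290 to 3.23) for C2. Over all tested genes the median log2 difference between these libraries was -0.0039, with an SD of 0.46 over genes. Thus PAD2KO 7 was low in C3, the C1 proteases and C1 inhibitor together. C2 had 7 counts and Cfb 0 counts in each of the 2 libraries, too few to tell whether they shared this difference. Some markers of other cells differed in the same direction and some in the other, and their part was not tested. The mesothelial markers summed to 50.1 CPM in PAD2KO 7 and 91.1 CPM in PAD2KO 6. In that order Upk3b stood at 7.95 and 28.7 CPM, Wt1 at 16.7 and 37.8 CPM and Msln at 6.36 and 9.03 CPM. Lrrn4 at 9.53 and 9.03 CPM and Krt19 at 9.53 and 6.57 CPM went the other way. So did the smooth muscle genes Cnn1 (362 and 322 CPM) and Myh11 (122 and 100 CPM), while Des had 163 and 181 CPM. The macrophage and other immune markers summed to 46.1 CPM in PAD2KO 7 and 87.0 CPM in PAD2KO 6, with Adgre1 at 0.79 and 14.0 CPM. These are differences between 2 libraries, with no replicate of either.

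**Figure D3:**
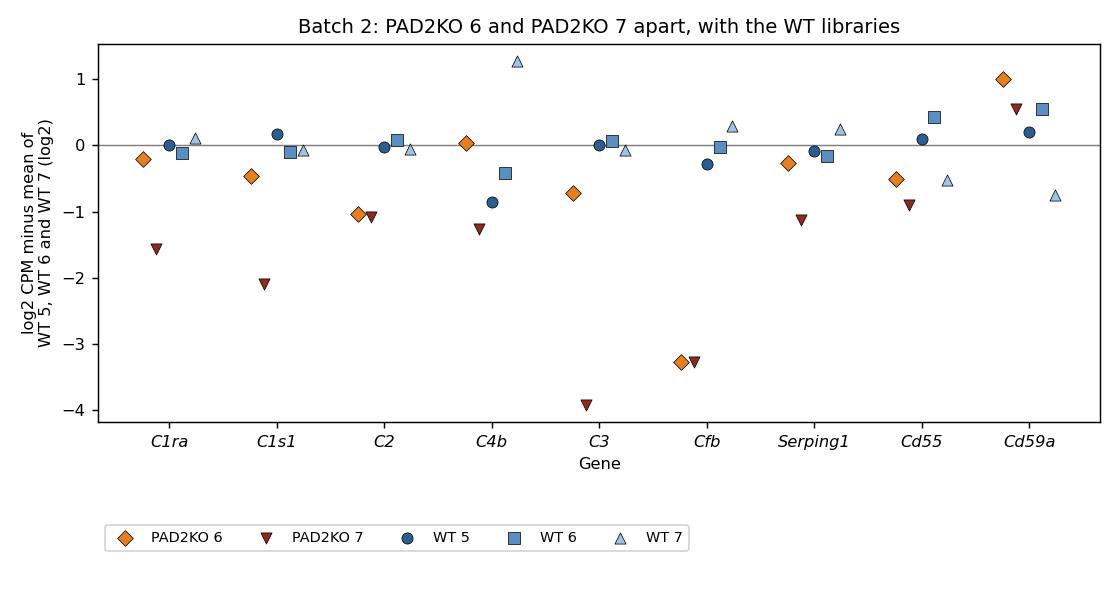
Batch 2 libraries, each as log2 CPM minus the mean of WT 5, WT 6 and WT 7 (vertical axis), by gene, with a symbol per library. For C3, PAD2KO 7 lies at -3.92 and PAD2KO 6 at -0.72, while their symbols coincide for Cfb, at 0 counts in both, and nearly so for C2.

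Between batches more of the 9 genes were called than between genotypes. The batch 2 cells of both genotypes carried less mRNA for C1ra, C2 and C4b and for C1 inhibitor, and those of WT carried more for Cd55. In PAD2KO, 5 of the 9 genes fell in batch 2 and none rose, where 18.7% of all tested genes were called and 9.13% were called lower. In WT, 4 of the 9 fell and 1 rose, where 22.3% of all tested genes were called, 10.6% lower and 11.7% higher. The median log2 fold change over the 9 genes was -1.34 in PAD2KO and -0.64 in WT, beside -0.0167 and -0.0040 over all tested genes.

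C2, C4b, C1ra and Serping1 fell in batch 2 in both genotypes. For C2 the log2 fold change was -2.16 in PAD2KO (SE 0.36, adjusted p = 6.846e-05) and -1.84 in WT (SE 0.24, adjusted p = 1.264e-06), and no batch 2 library reached the lowest batch 1 library. C1ra had -1.75 in PAD2KO (SE 0.25, adjusted p = 1.224e-05) and -1.16 in WT (SE 0.20, adjusted p = 7.395e-05), also with no overlap of the batches. How many of all tested genes had no overlap between batches is not given here. Serping1 had -1.17 in PAD2KO (SE 0.19, adjusted p = 0.0005562) and -0.64 in WT (SE 0.17, adjusted p = 0.01118). C4b had -2.37 in PAD2KO (SE 0.56, adjusted p = 0.006709) and -1.47 in WT (SE 0.45, adjusted p = 0.02511). The C4b of WT 7 lay within the batch 1 range, and the WT call was lost without WT 1, WT 3, WT 5 or WT 6 (adjusted p = 0.06951 to 0.112) and with length offsets (adjusted p = 0.09685). The PAD2KO call was lost without PAD2KO 7 (adjusted p = 0.08575).

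C1s1 fell in PAD2KO (log2 fold change -1.34, SE 0.38, adjusted p = 0.04064), and its value in WT was -0.36 (SE 0.30, adjusted p = 0.4561). The PAD2KO call was near the threshold and was lost without any of 7 libraries, PAD2KO 1, PAD2KO 3, WT 1, WT 4, WT 5, WT 6 or WT 7 (adjusted p = 0.05453 to 0.0845). It was also lost with length offsets (adjusted p = 0.05531) and with each genotype fitted alone (adjusted p = 0.1964). Cd55 rose in WT of batch 2 (log2 fold change 2.38, SE 0.35, adjusted p = 0.001595), where its lowest library stood at 225 CPM and the highest of batch 1 at 74.1 CPM. In PAD2KO its log2 fold change was 1.26 (SE 0.37, adjusted p = 0.05404), again with no overlap of the batches. It passed the threshold without PAD2KO 1, WT 6 or WT 7 (adjusted p = 0.03601, 0.03251 and 0.01935).

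C3, Cfb and Cd59a were not called between batches in either genotype. The C3 log2 fold change was -1.22 in PAD2KO (SE 0.82, adjusted p = 0.3807) and 0.19 in WT (SE 0.65, adjusted p = 0.8824). Cfb had 0 counts over both batch 2 PAD2KO libraries and 16 over the 3 of batch 1 (adjusted p = 0.0907, edgeR's quasi-likelihood test). By the limit over the group it was at least 3.29-fold lower, with the batch 1 value taken as exact. In WT its log2 fold change was 0.37 (SE 0.55, adjusted p = 0.6991). The Cfb limit in PAD2KO rests on PAD2KO 2, which held 14 of those 16 counts, and without it the adjusted p was 0.3194. Without PAD2KO 3, or with no filter on low counts, the Cfb difference in PAD2KO passed the threshold (adjusted p = 0.009708 and 0.00406). Cd59a had -0.20 in PAD2KO (SE 0.33, adjusted p = 0.7395) and -0.75 in WT (SE 0.32, adjusted p = 0.102).

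**Figure D4:**
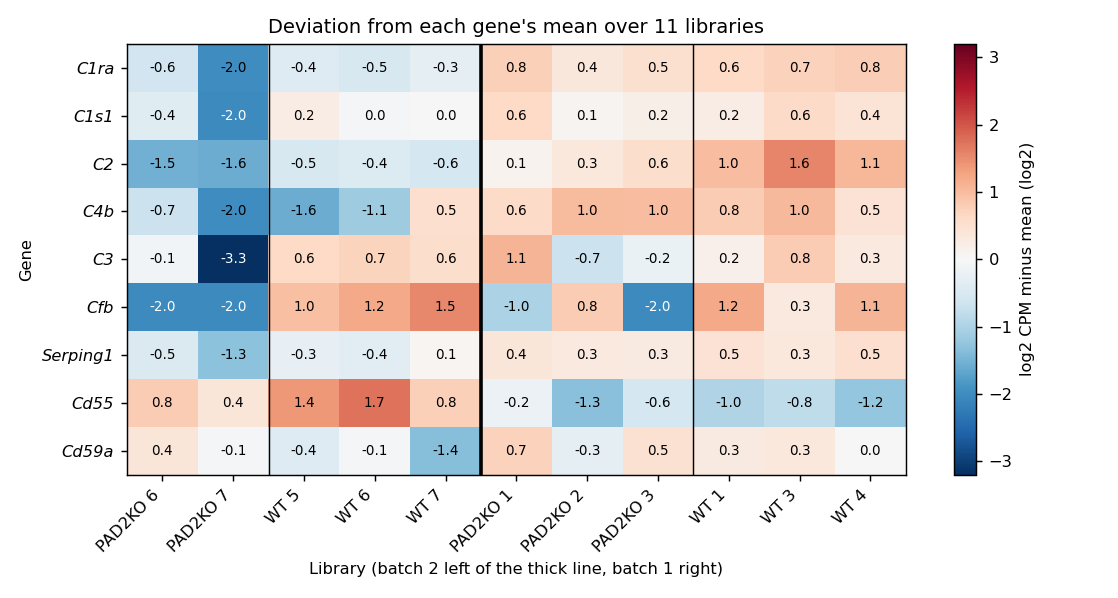
Log2 CPM of each complement gene minus its mean over the 11 libraries (colour and printed values), batch 2 left and batch 1 right of the thick line, PAD2KO left of WT in each. C2 and C1ra are below their mean in all of batch 2 and above it in all of batch 1, Cd55 shows the reverse, and PAD2KO 7 holds the lowest C3 value.

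The rest of the complement system was mostly scarce or undetected in these cells. Of 45 other complement genes, 34 had any counts and 7 passed the filter, among them C1rl, Masp1 and Colec12 of the initiating proteins, the regulators Cr1l and Clu, and C1qbp, a C1q-binding protein. At 0 counts in all libraries were Masp2, Mbl1, Cfd, C6, C7, C8a, C8b, C9, Cfhr2, Vtn and Vsig4, among them 5 of the 7 listed genes of the membrane pore. None of the 7 was called between PAD2KO and WT in batch 1, in batch 2 or over both. An unadjusted p under 0.05 was reached by 1, 0 and 1 of them, beside 545, 1433 and 759 of all 9932 tested genes. Both times it was Clu, which encodes clusterin, an inhibitor of the pore. Clu stood at 697, 488 and 543 CPM in PAD2KO of batch 1, against 1231, 1269 and 1055 CPM in WT. These groups did not overlap, and the log2 fold change was -1.04 (adjusted p = 0.6124).

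Between batches, all 7 were called in WT, 5 lower and 2 higher, and 5 in PAD2KO, 4 lower and 1 higher, beside 22.3% of all tested genes in WT and 18.7% in PAD2KO. Clu had a log2 fold change between batches of -1.91 in PAD2KO (adjusted p = 0.01319) and -2.49 in WT (adjusted p = 0.001155). Masp1, a protease of the lectin pathway, rose in WT (1.26, adjusted p = 0.03524). C1qbp rose in PAD2KO (0.46, adjusted p = 0.0192) and in WT (0.61, adjusted p = 0.000656).

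Of 13 genes for receptors and factors known to control complement transcription, 12 were tested. Between PAD2KO and WT, 1 was called in batch 2, beside 3.11% of all tested genes, and none in batch 1 or over both. An unadjusted p under 0.05 was reached by 4 of the 12 in batch 2, 0 in batch 1 and 2 over both. Of all 9932 tested genes, 1433, 545 and 759 did so. Between batches, 6 of the 12 were called in PAD2KO, 4 higher and 2 lower, where 18.7% of all tested genes were called, and 5 in WT, 3 higher and 2 lower, where 22.3% were. Il6st, the shared signal chain of interleukin-6 receptors, fell in PAD2KO (-1.73, adjusted p = 9.956e-12) and in WT (-2.04, adjusted p = 8.503e-15). Nfkbia, the inhibitor of NF-kB that this factor itself induces, rose in PAD2KO (1.00, adjusted p = 0.01394) and in WT (1.85, adjusted p = 5.012e-05). Stat3, which carries the interleukin-6 signal, fell in PAD2KO (-0.63, adjusted p = 0.0001665) and in WT (-0.50, adjusted p = 0.000362).

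Markers of fibroblasts and of other cells moved with some of these values, and their part in the results was not tested. Of 7 tested fibroblast markers, 6 were called lower in batch 2 in PAD2KO and 5 in WT. Of all tested genes, 9.13% and 10.6% were called lower there. Between PAD2KO and WT in batch 2, 2 of the 7, Col3a1 and Dcn, were called, both lower in PAD2KO, beside 3.11% of all tested genes. The 5 mesothelial markers, all detected, summed to 50.1 to 91.1 CPM in PAD2KO and 52.6 to 90.8 CPM in WT of batch 2, against 90.8 to 255 CPM in PAD2KO and 200.4 to 348 CPM in WT of batch 1. Within batch 1 the mesothelial gene Upk3b stood at 98.7, 22.5 and 57.2 CPM in PAD2KO, against 90.7, 175 and 83.7 CPM in WT. Its order within PAD2KO and its highest WT library there were those of C3, as for Lrrn4 and Wt1 but not for Msln and Krt19. In batch 2 Upk3b stood at 28.7 CPM in PAD2KO 6, above WT at 14.8, 5.56 and 4.29 CPM, where C3 was below WT. Between batches in WT, Upk3b had a log2 fold change of -3.74 and C3 of 0.19. Macrophage and other immune markers, of which 7 or 8 of 9 were detected in a group, summed to 46.1 to 87.0 CPM in PAD2KO and 45.8 to 248 CPM in WT of batch 2. In batch 1 they summed to 24.6 to 57.8 CPM in PAD2KO and 18.5 to 64.7 CPM in WT. WT 7, the library with the high C4b of its group, had the highest of these sums, with Adgre1 at 45.1 CPM and Lyz2 at 164 CPM. Adgre1 stood at 14.0 CPM or less in every other library. Cd68 and Csf1r of the same list were lower in WT 7 (4.29 and 12.9 CPM) than in WT 6 (7.94 and 14.3 CPM). In batch 1, where C4b stood at 20.1 to 30.9 CPM, Adgre1 was at 1.61 CPM or less. Smooth muscle and pericyte markers, all 5 detected, summed to 606 to 649 CPM in PAD2KO and 250.2 to 361 CPM in WT of batch 2, against 932 to 1261 CPM in PAD2KO and 1160 to 1311 CPM in WT of batch 1. Of their 3 tested genes, Myh11 and Des fell in batch 2 in PAD2KO and Myh11, Cnn1 and Des in WT, beside the complement genes that fell. Within batch 2, Cnn1 and Myh11 were called higher in PAD2KO than in WT (log2 fold changes 1.25 and 1.79, adjusted p = 3.107e-06 and 0.01649). The epithelial markers summed to 23.0 to 41.9 CPM in PAD2KO and 22.5 to 35.7 CPM in WT of batch 2, against 12.6 to 26.5 CPM in PAD2KO and 17.4 to 23.3 CPM in WT of batch 1. Most of it was Krt18, which rose in batch 2 in PAD2KO (1.01, adjusted p = 0.03578) and in WT (0.83, adjusted p = 0.04679). Endothelial markers summed to at most 20.4 CPM in any library.

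**Figure D5:**
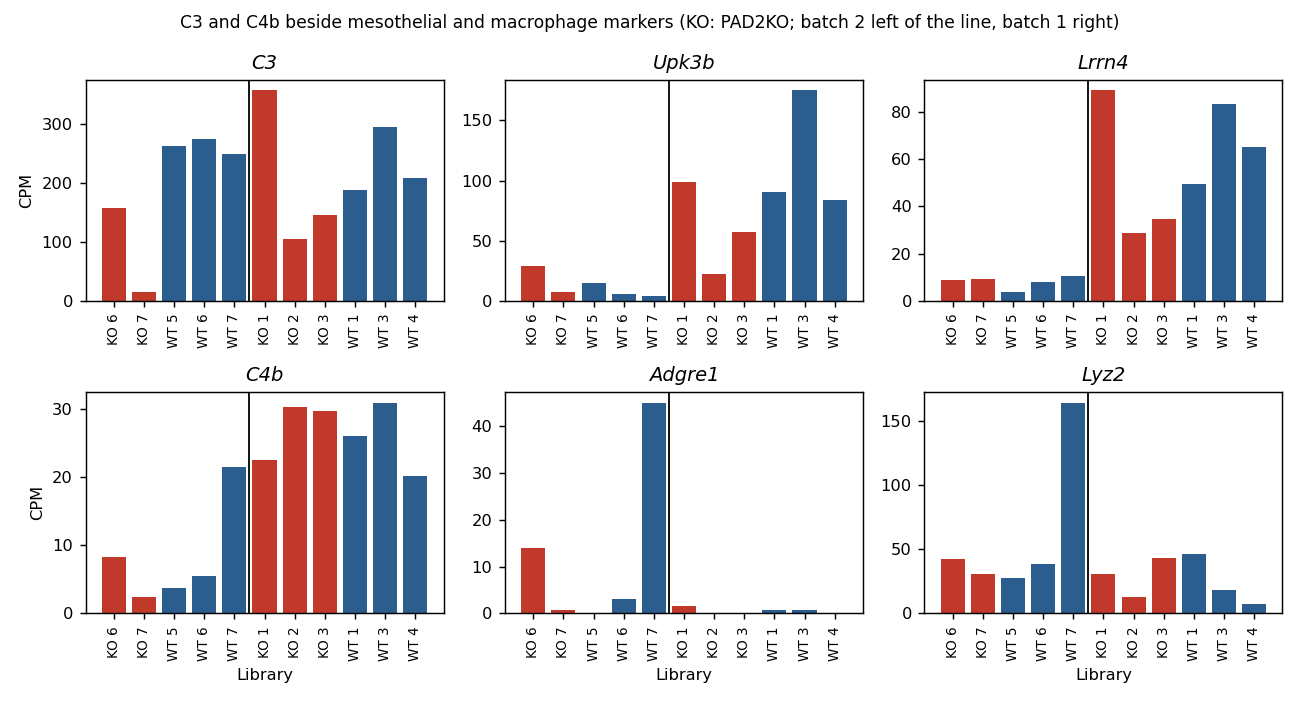
Level in CPM (vertical axis) in each library of C3 beside the mesothelial markers Upk3b and Lrrn4, and of C4b beside the macrophage markers Adgre1 and Lyz2; red bars are PAD2KO and blue bars WT, with batch 2 left of the line. WT 7 is highest in Adgre1 and Lyz2 at 45.1 and 164 CPM, and Lrrn4 is lower in every batch 2 library than in any of batch 1, while for Upk3b PAD2KO 6 at 28.7 CPM stands above PAD2KO 2 at 22.5 CPM.

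Likeness of pattern was measured as the root-mean-square difference of log2 CPM, centred for each gene, over the 11 libraries. Outside the gene lists used here, C2 was nearest to Col14a1, a fibril-associated collagen, at 0.238, then Nkd1 at 0.363 and Lox, which cross-links collagen, at 0.369. Col14a1 stood at 26.5, 35.9, 27.5, 6.57 and 6.36 CPM in PAD2KO 1, 2, 3, 6 and 7, and at 43.4, 47.5, 47.5, 13.3, 11.9 and 10.7 CPM in WT 1, 3, 4, 5, 6 and 7. Like C2, it was below WT in every PAD2KO library of its batch. Col14a1 was picked for its likeness to C2 in these same libraries, so the shared order is no separate result. The nearest of the other complement genes to C2 was C1ra, at 0.470. C3 was nearest to Pcdhga1 at 0.592, Slc6a9 at 0.662 and Gbp2, an interferon-induced GTPase, at 0.670, with C1s1 at 0.577 among the complement genes. Cfb was nearest to Fbxo44 at 0.748, Zfp984 at 0.874 and Phf11d at 0.902, and its nearest complement gene, again C1s1, was farther away at 1.24. These distances describe the same libraries and share their depth and batches.

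The tested genes beside Cfb and C2 on chromosome 17 were not called between PAD2KO and WT. Stk19, Dxo and Nelfe had log2 fold changes between PAD2KO and WT over both batches of -0.09, -0.25 and -0.08 (adjusted p = 0.9652, 0.84 and 0.9508). C4b, at the other end of the stretch, had -0.11 (SE 0.33, adjusted p = 0.9748). The other complement genes over both batches were also short of the threshold: C1ra had -0.36 (adjusted p = 0.6418), C1s1 -0.48 (adjusted p = 0.7506), Serping1 -0.34 (adjusted p = 0.622), C3 -0.76 (adjusted p = 0.8243), Cd55 -0.22 (adjusted p = 0.9278) and Cd59a 0.37 (adjusted p = 0.7595).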

How the data were processed

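The authors deposited 1 table that holds estimated counts, effective gene lengths and TPM (abundance per transcript length) for 11 libraries, per the file headers. The libraries came from a SMARTer kit used for SmartSeq2, per the labels' protocols, and carry no molecular identifiers, so copies of a molecule count as separate reads. The submitters' processing notes name fastp, Salmon 1.3.2, DESeq2 1.46.0 and GRCm39; their roles and the annotation are not given in the sources used here.

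Of 56065 entries, 23133 without a symbol (3.80% to 6.40% of a library's counts) were left out. The rest were summed to 32868 symbols and rounded. Counts were tested in edgeR 4.0.16 (R 4.3.3) with TMM, filterByExpr on genotype and a robust quasi-likelihood fit of the 4 groups, or of batch and genotype for both batches together, with Benjamini-Hochberg adjustment over 9932 genes at 0.05. CPM are counts over effective library sizes; log2 values for patterns carry edgeR's prior count. SEs are the log2 fold change over the root of F. Ratios of 2 libraries have exact conditional binomial intervals from SciPy 1.17.1. The fit was tested on simulated data.

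Named are all 9 genes, their copies, tested or called genes of fixed lists (up to 4 more by smallest p), and for C2, C3 and Cfb the 3 nearest patterns. Members and lists were chosen with earlier results of these data known. Some genes of the lists count in the totals and are not reported here by name. Alternatives were DESeq2 1.42.0, no count filter, length offsets, each library left out, replicate number as a block, batches or genotypes fitted alone, no batch term, and, chosen after seeing the data, PAD2KO 7 and WT 7 left out together. WT 5 and WT 6 were the most alike pair (chi-square per degree of freedom 1.51, others 2.10 to 3.18) and were kept as 2 libraries.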

Additional observations from a re-analysis of the deposited data

How the results depend on the processing

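Of 887 alternative values of the 54 log2 fold changes of the 9 genes (6 comparisons each), 867 kept their sign, 25 gained and 25 lost a call. None of the 20 that changed sign was called. For PAD2KO against WT in batch 1, C3 ranged from -0.88 to 0.12, C4b from -0.055 to 0.25 and Cd59a from -0.076 to 0.41 with 1 library left out, turning sign without PAD2KO 2 or WT 3, without WT 4 and without PAD2KO 1; C4b was -0.13 with the replicate block. In batch 2, C4b ranged from -1.91 to 0.19 (without WT 7) and was 0.82 without PAD2KO 7 and WT 7 together. Between batches, C3 in WT was -0.070 with length offsets, and Cd59a in PAD2KO ranged from -0.46 to 0.030, above 0 without PAD2KO 1 or PAD2KO 7, and was 0.16 with length offsets and 0.025 without PAD2KO 7 and WT 7. For the difference of the genotype differences, C2 was 0.32 with length offsets, C4b ranged from -2.01 to 0.095 (without WT 7) and was 0.73 without PAD2KO 7 and WT 7, and C1ra was 0.015 without both. Over both batches, C4b ranged from -0.25 to 0.11, above 0 without PAD2KO 7 or WT 7, and was 0.068 with no batch term and 0.19 without PAD2KO 7 and WT 7. Counts of called genes among the 9 also moved, and those without PAD2KO 6 or PAD2KO 7 rest on 1 PAD2KO library in batch 2. In batch 1 the count was 0 and became 1 (C2) with no count filter. In batch 2 it was 1 and ranged from 0 to 3 with 1 library left out; it was 4 with no filter, 0 with length offsets, 2 with the replicate block (Cfb, and Cd55 at an adjusted p of 0.03695) and 0 without PAD2KO 7 and WT 7. DESeq2 called 1 there, Serping1 (adjusted p = 0.02711), and gave Cfb no adjusted p. For the difference of differences it was 0 and ranged from 0 to 3 with 1 library left out; it was 1 with no filter (Cfb) and 1 with the replicate block (Cd55). Over both batches it was 1 and ranged from 0 to 2 with 1 library left out; it was 2 with no filter, 0 with length offsets and 0 with no batch term. With the replicate block C2 was -1.07 (adjusted p = 0.1748) and Cfb was called (adjusted p = 0.03414). Same-numbered libraries deviated together weakly (r of 0.0015 to 0.0487 for 4 shared numbers), and no label ties them. Between batches the counts stayed at 4 or 5 of 9 in WT and 4 to 6 in PAD2KO. Over all tested genes, the calls in batch 2 numbered 309 and ranged from 59 to 529. The cause of these changes was not tested. Cfb at 0 to 17 counts and C4b at 3 to 43 counts per library are limited by depth.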
